A study of Mus musculus with 8 samples.

Results

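The genes of the core binding factor and of its leukemia fusion partner were followed in leukemic mouse bone marrow. They are Runx1, Runx2, Runx3, Cbfb, Runx1t1, Cbfa2t2 and Cbfa2t3, chosen by gene symbol from a table of 23997 genes. All 7 were in the table, and all 7 were among the 12565 genes tested, those with 1 FPKM or more in 2 or more libraries. FPKM is the number of sequenced fragments scaled by transcript length and by library size.

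The marrow came from C57BL/6 mice given 5-fluorouracil (5FU) 4 days before collection. It was cultured with IL3, IL6 and SCF and transduced with AML1-ETO and Meis2 (AE+Meis2, n = 3), AML1-ETO9a and Meis2 (AE9a+Meis2, n = 3) or AML1-ETO9a without Meis2 (AE9a, n = 2). Lethally irradiated mice received the cells 48 hours after transduction, and RNA was taken from their marrow once leukemia had developed. Median latency was 171, 102 and 138 days in that order of groups. Setting AE9a+Meis2 against AE9a is called the Meis2 comparison below, the full-length against the truncated fusion, both with Meis2 (AE+Meis2 against AE9a+Meis2), the fusion comparison, and AE+Meis2 against AE9a the joint comparison. Every group carries a transduced fusion of RUNX1 with RUNX1T1, and none of the groups compared here is normal marrow. The sources used here do not give the age of the animals, the promoter that drove the transgenes, any pooling of animals or the species of the transduced sequences, so the values of Runx1, Runx1t1 and Meis2 count whatever part of the transgene aligned to the mouse gene together with the mouse gene's own RNA.

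Core binding factor is a pair of proteins. An alpha subunit, RUNX1, RUNX2 or RUNX3, binds DNA through its Runt domain, and the beta subunit CBFB touches no DNA itself but strengthens that binding. RUNX1 is needed for blood stem cells to form, RUNX2 directs bone formation, and RUNX3 acts in T cells and other lymphocytes. ETO (RUNX1T1), MTGR1 (CBFA2T2) and ETO2 (CBFA2T3) are related corepressors that bind no DNA on their own and bring corepressor complexes and histone deacetylases to DNA-bound factors. AML1-ETO joins the Runt domain of RUNX1 to nearly all of ETO, and AML1-ETO9a is a splice form that lacks the C-terminal part of ETO.

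The libraries were uneven. Their relative depth, read roughly from the most common ratio of low values, ran from 12.1% to 65.5% of that of AE9a+Meis2 replicate 2 in the other 7. In AE9a+Meis2 replicate 3 and AE9a replicate 1, 84.2% and 72.1% of 1536 genes of families silent in marrow (olfactory and vomeronasal receptors, keratin-associated proteins, beta-defensins) were above 0, against 3.32% to 6.58% elsewhere. All 5 leukocyte markers examined (Ptprc, Cd48, Laptm5, Coro1a and Vav1) were above 1 FPKM in every library, with sums of 1015 to 2220 FPKM. The Y-linked gene Eif2s3y reached 158 and 176 FPKM in the AE+Meis2 libraries numbered 1 and 2, 7.06 in the third and at most 0.574 where AE9a was used, so sex differs between the groups and within 1 of them. The part of these features in the results below was not tested. The labels do not say whether libraries of a group came from separate donors or transductions, so the spread behind each p-value may be partly technical. Values are given in order of replicate number.

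Over the 8 libraries Cbfb had the highest median level of the 7 genes (59.5 FPKM), followed by Runx1 (40.8), Runx1t1 (22.5), Runx3 (10.9), Cbfa2t3 (9.74), Runx2 (9.73) and Cbfa2t2 (7.23). FPKM is scaled by length, so the levels of the other 5 genes can be set against each other, while those of Runx1 and Runx1t1 may include transgene that covers only part of the gene, and their places in the order hold for the listed values only. Cbfb exceeded Runx1 in 7 of 8 libraries, and Runx2 exceeded Cbfa2t2 in 7 of 8. Runx1 exceeded Runx1t1, Runx1t1 exceeded Runx3 and Runx3 exceeded Cbfa2t3 in 6 of 8 libraries each. Cbfa2t3 and Runx2 could not be ordered, each being the higher in 4 of 8. The genes also differed in how steady they were. Cbfb varied 1.63-fold between its lowest and highest library, Runx3 2.07-fold, Cbfa2t2 2.55-fold, Runx1 3.08-fold, Runx2 5.92-fold, Cbfa2t3 11.7-fold and Runx1t1 21.6-fold.

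**Figure D1:**
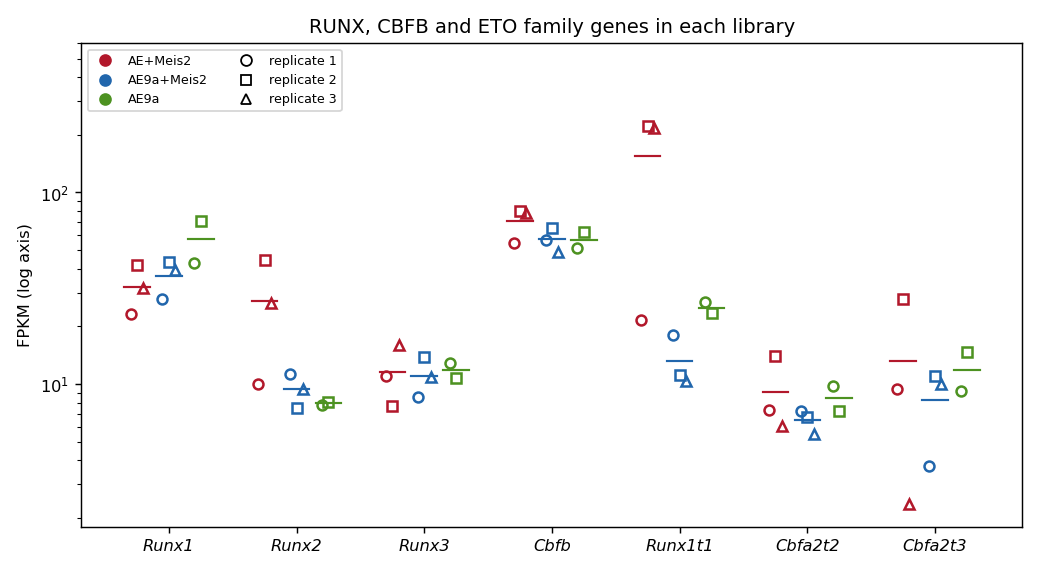
FPKM of the 7 genes on a log axis, 1 point per library, coloured by group and shaped by replicate number, with short lines at the group means. Runx1t1 and Runx2 are high in AE+Meis2 replicates 2 and 3 only, Cbfa2t3 is spread widely within AE+Meis2, and Cbfb lies between 49.0 and 79.8 FPKM throughout.

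Within the 3 comparisons none of the 7 genes passed the threshold (limma on log2(FPKM + 1), Benjamini-Hochberg adjusted p under 0.05 over all genes tested). Over all genes tested, 0.0478% passed in the Meis2 comparison, 0.0398% in the fusion comparison and 0.0318% in the joint comparison. At an unadjusted p under 0.05 the members numbered 0, 2 and 1 in that order, beside 3.06%, 7.15% and 5.98% of all genes. The 2 members in the fusion comparison were Runx1t1 and Runx2, and the 1 in the joint comparison was Runx2. The median log2 difference of the 7 genes was -0.33, 0.30 and 0.03, beside -0.0011, 0.04 and 0.06 for all genes. The comparisons share groups, so they are not independent of each other.

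**Figure D2:**
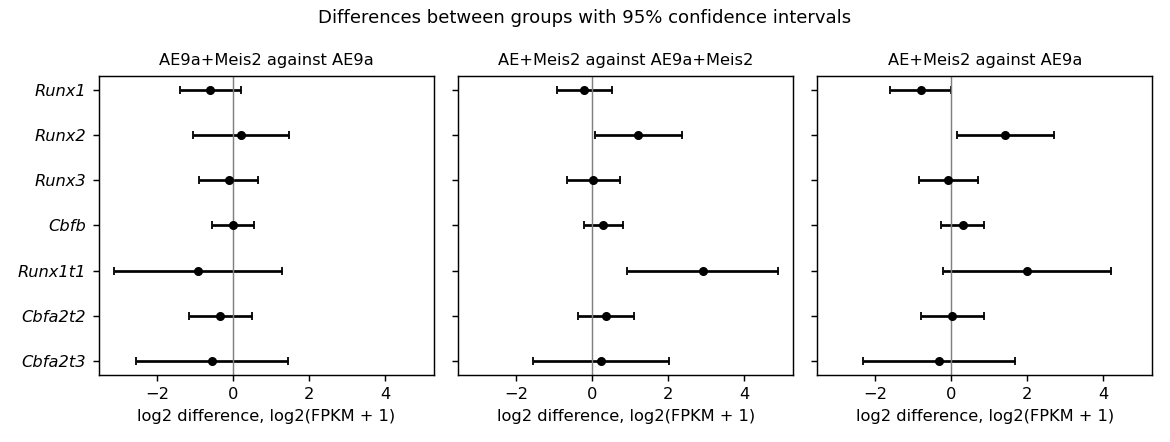
Log2 differences of the 7 genes on the log2(FPKM + 1) scale in the 3 comparisons, with 95% confidence intervals from limma. The intervals of Runx1t1 and Runx2 lie above 0 in AE+Meis2 against AE9a+Meis2, before adjustment for the number of genes, and the interval of Cbfb is the narrowest in each panel.

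Runx1 encodes the alpha subunit that supplies the DNA-binding part of both fusions. The gene lies on the minus strand of chromosome 16, 92601466 to 92826149 (GRCm38, the mm10 build), with 9 exonic blocks. Runx1 stood at 23.1, 42.0 and 31.6 FPKM in AE+Meis2, at 27.7, 43.4 and 39.6 FPKM in AE9a+Meis2, and AE9a had 42.9 and 71.1 FPKM. The AE9a values lay above all 3 AE+Meis2 values, while the ranges of AE9a and AE9a+Meis2 overlapped. The log2 difference was -0.80 ± 0.34 (SE) for the joint comparison (limma adjusted p = 0.83, 95% interval -1.61 to 0.0044). For the Meis2 comparison it was -0.60 ± 0.34 and for the fusion comparison -0.20 ± 0.31 (limma adjusted p = 1 and 0.90). Without AE9a replicate 2, the library with the highest Runx1, the difference in the joint comparison was -0.44. Over the alternatives tried it ran from -1.16, with small RNAs left out and libraries rescaled, to that value, and passed the threshold in none. Groups that did not overlap were found for 2 of the 7 members in the joint comparison (Runx1 and Runx2) beside 18.6% of all genes, and for 1 member in each of the other comparisons (Runx1t1 in both) beside 23.8% in the Meis2 comparison and 13.5% in the fusion comparison. The level of Runx1 stood above 68.7% to 90.8% of all tested genes in the same library.

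The tested genes whose pattern over the 8 libraries was most like that of Runx1 were Hmces (Pearson r = 0.94), which protects abasic sites in DNA, Dvl2 (0.92), a Wnt signalling adaptor, and Ctbp1 (0.91), a corepressor. These and the r values given below for other members describe 8 libraries of uneven depth that share a fusion background. They are the top 3 of 8649 genes searched, those with a mean of at least 5 FPKM, by the r of log2(FPKM + 1).

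Runx2 encodes the alpha subunit best known from bone. It lies on the minus strand of chromosome 17, 44495987 to 44814797 (GRCm38). Runx2 stood at 9.98, 44.4 and 26.6 FPKM in AE+Meis2, at 11.3, 7.49 and 9.47 FPKM in AE9a+Meis2, and AE9a had 7.76 and 8.09 FPKM. Replicates 2 and 3 of AE+Meis2 were thus above every other library, and the library labelled AE+Meis2 replicate 1 lay inside the range of AE9a+Meis2. On the log2(FPKM + 1) scale the difference was 1.22 ± 0.48 in the fusion comparison and 1.42 ± 0.54 in the joint comparison, neither of which passed (limma adjusted p = 0.68 and 0.77, unadjusted p = 0.039 and 0.033). The 95% intervals ran from 0.08 to 2.35 and from 0.15 to 2.69. AE9a+Meis2 differed from AE9a by 0.21 ± 0.54 (95% interval -1.06 to 1.48). With the library labelled AE+Meis2 replicate 1 left out, the differences were 1.78 ± 0.29 and 1.99 ± 0.32 (limma adjusted p = 0.18 and 0.14). Without AE+Meis2 replicate 2, the library with the highest Runx2, they were 0.76 ± 0.40 and 0.96 ± 0.44.

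Bone-forming and plasmacytoid dendritic cells also use Runx2, and in bulk marrow fewer cells of a type and less RNA per cell cannot be told apart. The summed level of 6 osteoblast markers was 6.58, 8.10 and 2.94 FPKM in AE+Meis2, 2.52 to 4.74 FPKM in AE9a+Meis2, and AE9a had 10.1 and 7.14 FPKM. The single markers differed in direction. In AE+Meis2 replicates 2 and 3, where Runx2 was high, the collagen gene Col1a1 had its highest values, 5.43 and 1.97 FPKM, against 0.326 to 1.04 FPKM in the other 6 libraries. The phosphatase gene Alpl was at 0.547 and 0.0840 FPKM there, the first being its highest value, and Sp7, an osteoblast factor, at 0.101 and 0 FPKM. Bglap, the gene of osteocalcin, was listed at 0 in both, Dmp1 was at 0.0414 and 0 FPKM, and Ibsp, a bone matrix gene, at 1.98 and 0.886 FPKM, within or below its range of 1.49 to 7.71 FPKM elsewhere. The part of bone cells in the Runx2 values was not tested. The 5 plasmacytoid dendritic cell markers summed to 1.63 and 3.33 FPKM in those libraries and to 2.27 to 27.8 FPKM in the other 6. The genes most like Runx2 in pattern were Tnip1 (Pearson r = 0.99), an inhibitor of NF-kappaB signalling, Zfp36l2 (0.98), an RNA-binding protein that promotes mRNA decay, and Arfgef2 (0.97), an exchange factor of vesicle transport. Zfp36l2 stood at 167, 584 and 282 FPKM in AE+Meis2, against 107 to 190 FPKM in the AE9a+Meis2 and AE9a libraries.

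Runx3 lies on the plus strand of chromosome 4, 135120652 to 135177990 (GRCm38). It was at 11.0, 7.73 and 16.0 FPKM in AE+Meis2, at 8.52, 13.8 and 10.9 FPKM in AE9a+Meis2, and AE9a had 12.9 and 10.7 FPKM. The 3 groups overlapped, and both the lowest and the highest value belonged to AE+Meis2. Log2 differences were -0.11 ± 0.33 for the Meis2 comparison, 0.03 ± 0.30 for the fusion comparison and -0.08 ± 0.33 for the joint comparison (limma adjusted p = 1, 0.99 and 0.99). Each of these small differences changed sign in at least 1 alternative. The 95% intervals, which together span -0.88 to 0.72, give the range of change that these data allow. Lymphocytes express Runx3, and AE+Meis2 replicate 3, the library with the most Runx3, did not have the highest lymphocyte markers: 8 T-cell markers summed to 31.6 FPKM there and to 13.7 to 69.3 FPKM over all libraries, and 8 NK-cell and cytotoxic markers to 10.3 FPKM and to 6.38 to 74.8 FPKM over all. The 9 granulocyte markers in the table summed to 178910 FPKM in that library, of which S100a8 alone was 131098 FPKM. They summed to 1860 FPKM in AE+Meis2 replicate 2, where Runx3 was lowest, and to 18124 FPKM in the library labelled replicate 1. In AE9a+Meis2 the sums were 2856, 15280 and 37178 FPKM, and AE9a had 5242 and 19947 FPKM. Runx3 did not follow this order throughout, at 12.9 FPKM in AE9a replicate 1 and 10.9 FPKM in AE9a+Meis2 replicate 3. The part of lymphocytes and granulocytes in the Runx3 values was not tested. The genes most like Runx3 were Sirpb1a (Pearson r = 0.94), a receptor of myeloid cells, Marveld1 (0.93) and Pilrb2 (0.91).

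Windows of 250 bases before the RefSeq starts (GRCm38.p6) were searched for TGTGGT, the core of the RUNX binding motif, its variant TGCGGT and TGACAG, the core bound by MEIS proteins, on both strands. The motifs do not overlap each other in these windows. There were 9 windows for 6 of the 7 genes. TGTGGT was found in 2 of 9, TGCGGT in 1 and TGACAG in 1, beside 14% (4614), 5.1% (1675) and 15.9% (5210) of 32851 promoter windows of the same length. The windows with TGTGGT were those of Runx2 and of the upstream start of Runx3, shown here beside the upstream start of Runx1 because the 3 alpha subunits can be compared and Runx2 varied most of them. Sequences run 5′ to 3′ towards the start, on the gene's strand, and capitals mark motif matches.
Runx1, minus strand, chr16:92826075-92826324: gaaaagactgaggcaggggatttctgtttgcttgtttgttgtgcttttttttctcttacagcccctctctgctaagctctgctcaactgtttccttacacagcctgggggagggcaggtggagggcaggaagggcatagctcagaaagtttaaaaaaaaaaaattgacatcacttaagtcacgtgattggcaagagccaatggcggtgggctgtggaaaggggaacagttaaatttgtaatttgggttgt
Runx2, minus strand, chr17:44814628-44814877: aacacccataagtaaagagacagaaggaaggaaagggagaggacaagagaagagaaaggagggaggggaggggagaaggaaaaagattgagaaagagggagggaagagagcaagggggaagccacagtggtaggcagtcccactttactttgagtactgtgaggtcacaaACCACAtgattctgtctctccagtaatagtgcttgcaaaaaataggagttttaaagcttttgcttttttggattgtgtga
Runx3, plus strand, chr4:135120395-135120644: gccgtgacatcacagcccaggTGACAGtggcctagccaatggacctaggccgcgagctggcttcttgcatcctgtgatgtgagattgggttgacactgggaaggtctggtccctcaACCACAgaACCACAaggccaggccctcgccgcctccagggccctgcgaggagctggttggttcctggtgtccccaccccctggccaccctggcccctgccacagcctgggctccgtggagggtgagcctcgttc
The Runx2 window holds the reverse complement of TGTGGT once, 80 to 75 bases before the start. That of Runx3 holds it at 134 to 129 and at 126 to 121 bases before the start, and TGACAG at 229 to 224 bases. The Runx1 window holds none of the 3 motifs. The downstream starts of Runx1 and Runx3 and the windows of Cbfb and Cbfa2t2 held none, and 1 of the windows of Cbfa2t3 held TGCGGT. The windows with TGTGGT belong to Runx2, which varied 5.92-fold over the libraries, and to Runx3, which varied 2.07-fold. A match describes the letters of a window and shows no binding.

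Set against each other, the 3 alpha subunits divided their summed FPKM differently in the libraries. Runx1 supplied 52.4%, 44.6% and 42.6% of it in AE+Meis2, 58.3%, 67.1% and 66.0% in AE9a+Meis2 and 67.5% and 79.1% in AE9a. Runx2 supplied 22.6%, 47.1% and 35.9% in AE+Meis2, 23.8%, 11.6% and 15.8% in AE9a+Meis2 and 12.2% and 9.0% in AE9a. Runx2 was level with Runx1 in AE+Meis2 replicate 2 (a ratio of 1.06) and close to it in replicate 3 (0.843), while the ratio was 0.114 to 0.432 in the other 6 libraries. A ratio of genes within a library does not depend on how libraries are scaled. Runx1 may include transgene here too, by an unknown amount, so these shares and ratios hold for the listed values only. The share of Runx3 ran from 8.22% to 24.9%.

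**Figure D3:**
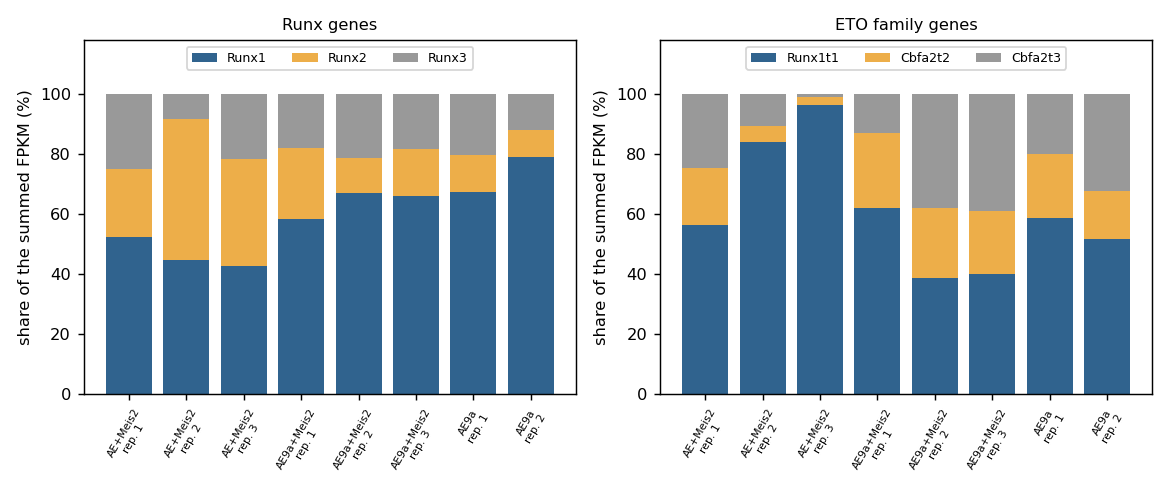
Share of each gene, in percent, in the summed FPKM of the 3 Runx genes (left) and of the 3 ETO family genes (right), 1 bar per library. Runx2 takes 47.1% and 35.9% of the Runx sum in AE+Meis2 replicates 2 and 3, and Runx1t1 takes 84.2% and 96.3% of the ETO family sum there. The values of Runx1 and Runx1t1 may include transgene.

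Cbfb encodes the shared beta subunit and lies on the plus strand of chromosome 8, 105170674 to 105217989 (GRCm38). It stood at 54.6, 79.8 and 78.0 FPKM in AE+Meis2, at 56.5, 65.4 and 49.0 FPKM in AE9a+Meis2, and AE9a had 51.1 and 62.4 FPKM. The groups overlapped, although the 2 highest values were again those of AE+Meis2 replicates 2 and 3. Log2 differences were 0.30 ± 0.21 for the fusion comparison, 0.30 ± 0.24 for the joint comparison and 0.0023 ± 0.24 for the Meis2 comparison (limma adjusted p = 0.80, 0.95 and 1). The 95% interval of the last ran from -0.56 to 0.56. Leaving out small RNAs and rescaling the libraries turned the second to -0.063 and the last to -0.11. Cbfb ranked above 86.4% to 91.5% of tested genes in its library, and 24.9% of tested genes had a smaller pooled SD within groups (0.25 on the log2 scale for Cbfb and a median of 0.38 for all genes).

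The level of Cbfb was set against the sum of the 3 alpha subunits, in which Runx1 may include transgene. The ratio of Cbfb to the summed Runx FPKM was 1.24, 0.848 and 1.05 in AE+Meis2, 1.19, 1.01 and 0.818 in AE9a+Meis2 and 0.804 and 0.694 in AE9a. Both AE9a values were below all the others, by a margin (0.804 against 0.818) much smaller than the spread within the other groups. The summed Runx FPKM was 70.8 ± 25.2 (SD, n = 3) in AE+Meis2, 57.4 ± 8.81 (SD, n = 3) in AE9a+Meis2 and 76.8 ± 18.6 (SD, n = 2) in AE9a. The genes most like Cbfb in pattern were Ctcf (Pearson r = 0.97), the insulator protein, Stag2 (0.96), a cohesin subunit, and Ankrd28 (0.96), a phosphatase subunit.

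Runx1t1 encodes ETO itself. By label ETO sequence is in all 3 groups, so its level cannot check which fusion a library carries. Runx1t1 lies on the plus strand of chromosome 4, 13743436 to 13893649 (GRCm38), with 15 exonic blocks that total 7959 bases. FPKM divides by the length of the gene's transcripts, so a transgene that covers only part of them counts for less than its molecules. Runx1t1 was at 21.6, 223 and 218 FPKM in AE+Meis2, at 18.0, 11.2 and 10.3 FPKM in AE9a+Meis2, and AE9a had 26.8 and 23.4 FPKM. The library labelled AE+Meis2 replicate 1 thus held less Runx1t1 than both AE9a libraries, and far less than the other replicates of its label. The same library had 13.1 FPKM of Meis2, against 38.2 and 81.5 FPKM in the other AE+Meis2 libraries and 6.99 and 13.2 FPKM in AE9a, which received no Meis2. Both values were below those of the other AE+Meis2 libraries. The AE9a+Meis2 libraries, which also carry a fusion by label, held less Runx1t1 still. How much of each transgene aligned is unknown. The Y-linked gene Eif2s3y was at 158 FPKM in the library labelled AE+Meis2 replicate 1, near AE+Meis2 replicate 2 (176 FPKM). In AE+Meis2 replicate 3 it was at 7.06 FPKM, and in each library with AE9a at most 0.574 FPKM. It marks the sex of the animal, which the transduced genes do not set, so it cannot check the label. Whether the label is right cannot be told from these values. The library also lacked the high Runx2 of the other replicates, and every difference given here for AE+Meis2 includes it unless stated.

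The log2 difference of Runx1t1 was 2.91 ± 0.84 for the fusion comparison (limma adjusted p = 0.56, unadjusted p = 0.010) and 1.99 ± 0.94 for the joint comparison (adjusted p = 0.88, unadjusted p = 0.071). With the library labelled AE+Meis2 replicate 1 left out, the differences were 4.01 ± 0.27 and 3.09 ± 0.30, of which the first passed over all genes (limma adjusted p = 0.011) and the second did not (0.071). Over the other alternatives tried, the adjusted p of the first ran up to 1.00. AE9a+Meis2 had less Runx1t1 than AE9a in each library, with a log2 difference of -0.92 ± 0.94 (limma adjusted p = 1, 95% interval -3.13 to 1.30). The spread in that fit is shared over the groups and so includes AE+Meis2; with only the libraries of AE9a+Meis2 and AE9a the same difference had an SE of 0.27 (limma adjusted p = 0.50, unadjusted p = 0.017). Meis2 stood at 621, 604 and 1277 FPKM in AE9a+Meis2, so the groups with the most Meis2 and with the most Runx1t1 were different ones.

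**Figure D4:**
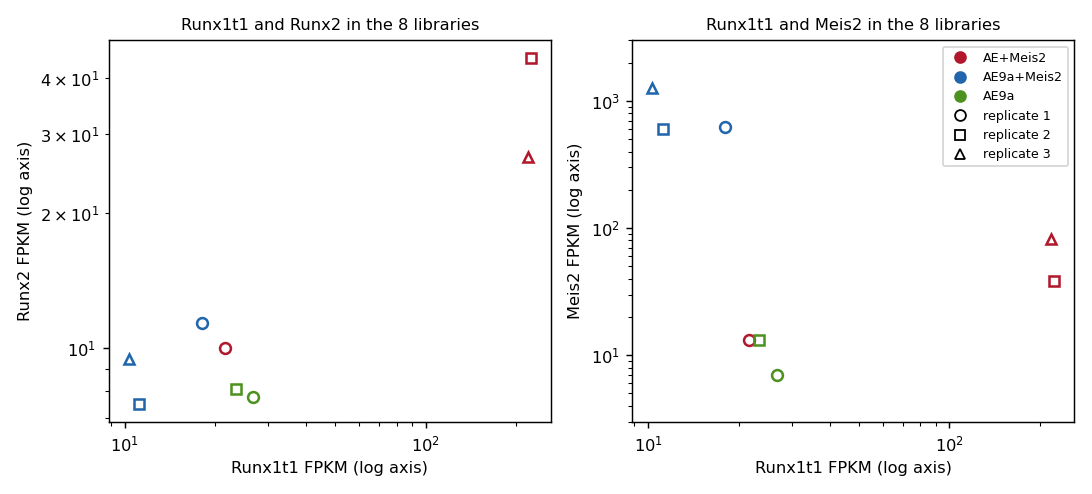
Runx1t1 FPKM against Runx2 FPKM (left) and against Meis2 FPKM (right) in the 8 libraries, all axes logarithmic, coloured by group and shaped by replicate number. AE+Meis2 replicates 2 and 3 are alone at high Runx1t1 and Runx2, and the AE9a+Meis2 libraries have the highest Meis2 and the lowest Runx1t1. The library labelled AE+Meis2 replicate 1 lies near libraries of both other groups in the left panel and near the AE9a libraries in the right one.

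The ratio of Runx1t1 to Runx1 within a library sets the listed values of both genes against each other, each with any transgene and the mouse gene's own RNA together. It was 0.936, 5.32 and 6.92 in AE+Meis2, 0.651, 0.258 and 0.261 in AE9a+Meis2 and 0.623 and 0.329 in AE9a. The mean log2 ratio was 1.70 ± 1.57 (SD, n = 3), -1.50 ± 0.77 (SD, n = 3) and -1.14 ± 0.65 (SD, n = 2). It was 2.60 in AE+Meis2 without the library labelled replicate 1. In that library the ratio was still above that of every AE9a+Meis2 and AE9a library, by a margin (0.936 against 0.651) smaller than the spread within those groups.

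Runx1t1 and Runx2 had a Pearson r of 0.92 over the 8 libraries, and Runx1t1 and Cbfb one of 0.82. The Spearman rho was 0.52 and 0.60, and AE+Meis2 replicates 2 and 3 lay apart from the other 6 libraries. Among the other 6 libraries Runx2 ran from 7.49 to 11.3 FPKM while Runx1t1 ran from 10.3 to 26.8 FPKM. The genes most like Runx1t1 were the one listed as Taz (Pearson r = 0.98), Ggnbp2 (0.97) and March7 (0.97), a ubiquitin ligase. Their ranges were narrow beside that of Runx1t1: Ggnbp2 stood at 56.9, 80.8 and 77.0 FPKM in AE+Meis2, against 50.5 to 55.9 FPKM in the AE9a+Meis2 and AE9a libraries.

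**Figure D5:**
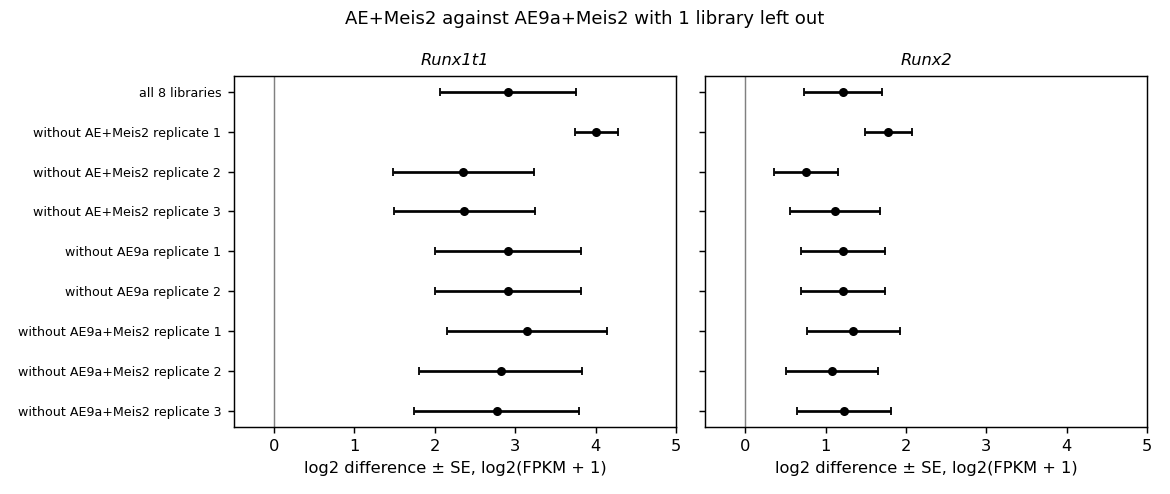
Log2 difference ± SE, on the log2(FPKM + 1) scale, of Runx1t1 (left) and Runx2 (right) in AE+Meis2 against AE9a+Meis2 with all 8 libraries and with each library left out in turn. Leaving out the library labelled AE+Meis2 replicate 1 gives the largest difference and the smallest error for both genes, 4.01 ± 0.27 and 1.78 ± 0.29.

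Cbfa2t2, the gene of MTGR1, lies on the plus strand of chromosome 2, 154436481 to 154539356 (GRCm38). It was at 7.33, 14.1 and 6.03 FPKM in AE+Meis2, at 7.23, 6.76 and 5.52 FPKM in AE9a+Meis2, and AE9a had 9.77 and 7.23 FPKM. Apart from AE+Meis2 replicate 2 the libraries stayed between 5.52 and 9.77 FPKM, and the groups overlapped. Its log2 differences were -0.33 ± 0.35, 0.36 ± 0.32 and 0.03 ± 0.35 for the Meis2 comparison, the fusion comparison and the joint comparison (limma adjusted p = 1, 0.83 and 1.00). Prr3 (Pearson r = 0.98), Crisp2 (0.98) and a gene listed as LOC106740 (0.98) had the most similar patterns.

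Cbfa2t3, the gene of ETO2, a corepressor of blood progenitors and of red cell and megakaryocyte precursors, lies on the minus strand of chromosome 8, 122625141 to 122699109 (GRCm38). Cbfa2t3 was at 9.43, 27.8 and 2.38 FPKM in AE+Meis2, at 3.74, 11.0 and 10.04 FPKM in AE9a+Meis2, and AE9a had 9.15 and 14.7 FPKM. Its lowest and highest values were both in AE+Meis2, 11.7-fold apart, and they belonged to the libraries that shared high Runx1t1 and Runx2. Of all tested genes, 92.7% had a smaller pooled SD within groups than Cbfa2t3 (1.10 on the log2 scale). The log2 differences, -0.56 ± 0.85 for the Meis2 comparison, 0.23 ± 0.76 for the fusion comparison and -0.33 ± 0.85 for the joint comparison, were smaller than their errors (limma adjusted p = 1, 0.96 and 0.98). Without AE+Meis2 replicate 2 the fusion comparison turned to -0.53, and without AE9a+Meis2 replicate 1 to -0.20. Without AE+Meis2 replicate 3 it was 1.02 and the joint comparison turned to 0.46.

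Some markers of other cells followed the order of Cbfa2t3 within AE+Meis2 and others did not. Kit, the stem cell factor receptor of progenitors and mast cells, was chosen among the marker lists after its values were seen. It stood at 46.6, 224 and 16.3 FPKM in AE+Meis2, at 50.7, 53.7 and 42.4 FPKM in AE9a+Meis2, and AE9a had 66.5 and 121 FPKM. Kit was highest in the library with the highest Cbfa2t3 and lowest in the library with the lowest. Between AE+Meis2 replicates 2 and 3, of the other 5 genes on the stem and progenitor list, Cd34 was at 8.09 and 32.5 FPKM, Flt3 at 4.93 and 6.49, Procr at 0.401 and 1.04 and Mecom at 0 and 0.465, the reverse order, and Hlf was at 1.88 and 1.87 FPKM. Markers of megakaryocytes and platelets, 8 genes, summed to 105, 374 and 17.5 FPKM in AE+Meis2 and to 17.5 to 34.4 FPKM in the others. The 9 erythroid markers summed to 4457, 2456 and 475 FPKM in AE+Meis2, to 1078, 2930 and 2408 FPKM in AE9a+Meis2 and to 1430 and 2381 FPKM in AE9a. That sum was highest in the library labelled AE+Meis2 replicate 1, not in replicate 2, where Cbfa2t3 was highest. The erythroid factor Klf1 had 14.1, 9.26 and 2.66 FPKM in AE+Meis2 and 5.95 to 31.2 FPKM elsewhere. Mast cell and basophil markers, 7 genes, summed to 4300, 1172 and 1566 FPKM in AE+Meis2 and to 773 to 2497 FPKM in the others. Their part in the Cbfa2t3 values was not tested. The genes most like Cbfa2t3 were Gemin8 (Pearson r = 0.99), a component of the complex that assembles spliceosomal particles, Nadk2 (0.98), the mitochondrial NAD kinase, and Tnik (0.98), a kinase of Wnt signalling.

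The ETO family sum was made up of Runx1t1 by 56.3%, 84.2% and 96.3% in AE+Meis2, by 62.2%, 38.6% and 39.9% in AE9a+Meis2 and by 58.6% and 51.7% in AE9a. Cbfa2t3 supplied 1.05% of it in AE+Meis2 replicate 3 and 38.8% in AE9a+Meis2 replicate 3. The members are separate in sequence: no stretch of 50 bases in the GENCODE M21 transcripts of one occurred in another. Stretches shared with genes outside the family were 5.66% for Runx2, of which most were in the antisense gene Runx2os1, 7.2% for Cbfa2t2, most in the pseudogene Cbfa2t2-ps1, and 2.92% for Cbfa2t3, all in the antisense gene Gm10612. They were 1.13% or less for Runx3, Runx1, Cbfb and Runx1t1, with 0 for both of the last. Runx1 shares 106 exonic bases with the antisense gene Gm26626. The kit named in the labels keeps no strand. Reads of Runx1, Runx2 and Cbfa2t3 thus cannot be told apart from those of their antisense genes over the shared bases.

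Genes that work with the family were examined through 4 lists, and no member passed limma over all genes in any comparison. Among 10 corepressors that ETO proteins bind, all tested, 1, 2 and 1 had an unadjusted p under 0.05 in the Meis2 comparison, the fusion comparison and the joint comparison. Over all genes the share was 3.06%, 7.15% and 5.98%, and counts this small say little beside it. The median log2 difference of that list was 0.05, 0.24 and 0.22, beside -0.0011, 0.04 and 0.06 for all genes. Hdac2, a histone deacetylase, differed by 0.56 ± 0.24 in the fusion comparison (limma adjusted p = 0.69). Hdac3 in the Meis2 comparison and Ncor1 in the joint one were at -0.22 ± 0.18 and 0.67 ± 0.31.

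Of 18 partners and modifiers of RUNX1, 17 were tested, and 1, 2 and 0 had an unadjusted p under 0.05 in the same order, beside 3.06%, 7.15% and 5.98% of all genes. The median log2 differences were 0.10, 0.12 and 0.20, beside -0.0011, 0.04 and 0.06 for all genes. Cebpa, a granulocyte lineage factor that is also a RUNX1 target, was at 10.2, 6.44 and 10.4 FPKM in AE+Meis2, against 59.4, 32.5 and 18.0 FPKM in AE9a+Meis2, while AE9a had 12.97 and 9.50 FPKM. AE9a+Meis2 lay above every library of the other groups. The log2 difference was -1.78 ± 0.42 in the fusion comparison and 1.48 ± 0.47 in the Meis2 comparison (limma adjusted p = 0.42 and 1). Tle1, a Groucho corepressor that binds the C-terminal end of RUNX proteins, stood at 8.15, 4.67 and 5.85 FPKM in AE+Meis2, at 3.03, 2.69 and 2.98 FPKM in AE9a+Meis2, and AE9a had 4.05 and 3.65 FPKM. Its log2 difference in the fusion comparison was 0.86 ± 0.23 (limma adjusted p = 0.52). Ep300, a histone acetyltransferase, was at 0.33 ± 0.26 in the Meis2 comparison, and Gata1, an erythroid factor, at -1.43 ± 0.73 in the joint one.

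The blood transcription complex that holds ETO2, with 11 genes tested, had 2, 0 and 2 at an unadjusted p under 0.05, beside 3.06%, 7.15% and 5.98% of all genes. Its median log2 differences were -0.36, 0.03 and -0.35, where all genes had -0.0011, 0.04 and 0.06. Ldb1, the adaptor that ties LMO2 to its partners, was at 176 and 152 FPKM in AE9a, at 95.7, 84.5 and 74.2 FPKM in AE9a+Meis2 and then at 127, 103 and 68.7 FPKM in AE+Meis2. AE9a was above every other library, with log2 differences of -0.95 ± 0.28 in the Meis2 comparison and -0.76 ± 0.28 in the joint one (limma adjusted p = 1 and 0.77). The E protein gene Tcf4 differed by 0.90 ± 0.35 in the Meis2 comparison, and Irf2bp2, a partner of ETO2, by 0.87 ± 0.30 in the joint comparison (limma adjusted p = 1 and 0.72). In the fusion comparison the smallest p values of this list belonged to Tcf4 and Tcf12, at -0.41 ± 0.31 and -0.30 ± 0.31.

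Literature targets of RUNX1, 13 of 15 tested, gave 2, 3 and 1 genes at an unadjusted p under 0.05, where the share of all genes was 3.06%, 7.15% and 5.98%. The medians were 0.37, 0.15 and 0.46 on the log2 scale, with -0.0011, 0.04 and 0.06 for all genes. Gzmb, a cytotoxic granule protease, differed by 2.55 ± 1.05 in the joint comparison (limma adjusted p = 0.83) but was at 58.3 FPKM in the library labelled AE+Meis2 replicate 1 and at 6.78 and 2.88 FPKM in the others of that group. Pf4, a platelet chemokine, differed by 2.09 ± 0.94 in that comparison (limma adjusted p = 0.85). Its values were 38.1, 82.4 and 5.90 FPKM in AE+Meis2, the last of them inside the AE9a range of 4.97 to 6.41 FPKM.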

How the data were processed

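RNA-seq of leukemic marrow, 8 libraries in 3 groups read from the sample titles, was analysed. The authors deposited FPKM for 23997 genes; the tools named are TopHat, Cufflinks and Cuffdiff, and the build mm10, per the submitters' processing notes, while the sources used here give no versions, settings or annotation. Absolute depth is unknown. Genes with at least 1 FPKM in at least 2 libraries (12565) were taken to log2(FPKM + 1), which understates the change of low genes. A linear model with a coefficient for each group and all 8 libraries was fitted in limma 3.58.1 (R 4.3.3) with an intensity trend; residual degrees of freedom were 5 and prior ones 2.28. Benjamini-Hochberg adjustment covered all tested genes (threshold 0.05), and ± after a log2 difference is the SE. The fit was run on simulated data with independent noise, where only the mean estimated change had to lie near the change put in. Python 3.11.15 with pandas 2.3.3 and matplotlib 3.10.9 made tables and plots. Gene coordinates are from GENCODE M21, promoters from RefSeq (GRCm38.p6).

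The members, lists and tests were chosen with earlier results of these data known. The text names all members, for each the 3 genes most like it by Pearson r, and from each list the genes with the smallest p, up to 2 per comparison. A few list genes named by this rule are not reported here and remain in the counts. Other settings covered the pseudocount, the filter, scaling, the libraries used and a replicate block.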

Additional observations from a re-analysis of the deposited data

How the results depend on the processing

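Of 21 log2 differences (7 genes, 3 comparisons), 12 kept their sign in all 16 alternatives, Runx2 and Runx1t1 among them in each comparison, and 1 passed the threshold in an alternative. That was Runx1t1 in AE+Meis2 against AE9a+Meis2 (4.01 when the library labelled AE+Meis2 replicate 1 was left out). The number of members past the threshold in that comparison ranged from 0 to 1 with 1 library left out. Some of the 16 alternatives leave the means of both groups unchanged, so a kept sign there was fixed in advance. Runx2 in AE9a+Meis2 against AE9a, for example, stayed at 0.21 when an AE+Meis2 library was left out. All-gene counts were 6, 5 and 4 in the Meis2, fusion and joint comparisons. With 1 library left out they ran from 2 to 9, from 6 to 23 and from 1 to 10. Counts moved over 1.5 times in the first without AE9a replicate 1 (2), in the second without AE+Meis2 replicate 1 (8), 2 (8) or 3 (23) or AE9a+Meis2 replicate 1 (9), and in the third without AE+Meis2 replicate 1 (1) or 3 (10), AE9a+Meis2 replicate 2 (2) or AE9a replicate 1 (1). Without genes listed at 0 across a group and small RNAs they were 0, 0 and 0 (389, 882 and 753 at an unadjusted p under 0.05). Small RNAs left out and libraries rescaled gave 4, 13 and 0; the median log2 difference of all genes was then -0.10, -0.18 and -0.27, and relative to it Cbfb stayed above the median in AE+Meis2 against AE9a. The first count was 3 without the libraries that had values in silent genes. The third was 1 with no filter on low values and 2 with only the libraries of both groups. A replicate block gave 2, 5 and 0. The replicate numbers did not pair the samples: same-numbered deviations correlated between -0.03 and 0.13, and not every library correlated best with its own number. The cause of these changes was not tested.

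Signs changed for 9 differences, none past the threshold. Under rescaling without small RNAs, Runx3 was -0.21 (AE+Meis2 against AE9a+Meis2), and against AE9a Cbfb was -0.063 and Cbfa2t2 -0.29. In AE9a+Meis2 against AE9a, Cbfb was -0.088 under quantile scaling, -0.11 under rescaling and -0.037 without the libraries that had values in silent genes, where Runx3 was 0.014 (0.044 in AE+Meis2 against AE9a). Leaving out 1 library, AE9a+Meis2 against AE9a ran from -0.27 to 0.053 for Runx3 and -0.14 to 0.14 for Cbfb. AE+Meis2 against AE9a+Meis2 ran from -0.41 to 0.0068 for Runx1, -0.21 to 0.27 for Runx3 and -0.53 to 1.02 for Cbfa2t3. AE+Meis2 against AE9a ran from -0.32 to 0.16 for Runx3, -0.30 to 0.25 for Cbfa2t2 and -1.09 to 0.46 for Cbfa2t3. With 2 libraries in AE9a, leaving out 1 assumes that the other varies like the remaining groups.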
